A study of Mus musculus with 8 samples.

Results

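Glycerol handling in fat was described through 7 genes in inguinal white adipose tissue, the subcutaneous depot of the mouse groin, of mice carrying a Fabp4-Ebf2 transgene and of wild-type mice. The genes were Gyk, Aqp7, Gpd1, Gpd1l, Gpd2, Pck1 and Pck2, chosen by symbol out of 22869 genes in the deposited RNA-seq count table, with 1 transcript row per gene. There were 4 wild-type and 4 Fabp4-Ebf2 libraries of polyadenylated RNA. All animals were of mixed background, about 6 weeks old, fed normal chow and kept at room temperature, and lymph nodes were taken out of the tissue before extraction. The transgene places Ebf2, a transcription factor gene enriched in brown and beige fat cells, under Fabp4 regulatory sequence, which is active in adipocytes and to a lesser degree in other cells such as macrophages. Neither the number of founder lines nor whether each library came from a separate animal is given in the sources used here, and the p-values below reflect library-to-library spread, which may in part be technical.

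When an adipocyte breaks down triglyceride, it releases fatty acids and glycerol. The glycerol leaves the cell through the channel AQP7, because white adipocytes are known for having little glycerol kinase, the enzyme encoded by Gyk that turns glycerol back into glycerol 3-phosphate. The glycerol 3-phosphate needed to re-esterify fatty acids is then made by GPD1 from dihydroxyacetone phosphate, which comes from glucose or, in glyceroneogenesis, from pyruvate by way of phosphoenolpyruvate carboxykinase (PCK1 in the cytosol, PCK2 in mitochondria). GPD2, on the outer face of the inner mitochondrial membrane, oxidises glycerol 3-phosphate and passes the electrons to ubiquinone, and with GPD1 it forms the glycerophosphate shuttle. Brown fat is known for more glycerol kinase and more GPD2 than white fat.

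Upstream sequence is shown for the 2 genes that rose, Gyk and Gpd2, and for Aqp7 and Pck1, the exporter gene and the glyceroneogenic gene, so that the letters in front of genes of unlike response can be read side by side. RefSeq windows of build GRCm38.p6, running from 250 bases before to 50 bases after a start site, matched 6 of the 7 genes, all but Gpd1, and Aqp7 and Gpd2 had 2 windows each. Each line gives the 250 bases before the start site, 5′ to 3′ on the gene's strand, and capitals mark letters that match a motif searched.
Gyk (listed as Gk in RefSeq), chrX:85776820-85777069, minus strand: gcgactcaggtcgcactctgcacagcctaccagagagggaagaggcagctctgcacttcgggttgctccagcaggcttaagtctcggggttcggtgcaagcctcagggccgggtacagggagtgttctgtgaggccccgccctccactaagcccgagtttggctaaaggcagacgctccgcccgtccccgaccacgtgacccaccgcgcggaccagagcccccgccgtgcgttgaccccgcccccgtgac
Gpd2, downstream start site, chr2:57238132-57238381, plus strand: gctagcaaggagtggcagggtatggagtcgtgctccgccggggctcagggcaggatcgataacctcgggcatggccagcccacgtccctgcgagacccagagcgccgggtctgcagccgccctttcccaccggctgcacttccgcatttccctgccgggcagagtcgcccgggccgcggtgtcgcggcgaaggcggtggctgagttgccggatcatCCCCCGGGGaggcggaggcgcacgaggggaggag
Aqp7, downstream start site, chr4:41047963-41048212, minus strand: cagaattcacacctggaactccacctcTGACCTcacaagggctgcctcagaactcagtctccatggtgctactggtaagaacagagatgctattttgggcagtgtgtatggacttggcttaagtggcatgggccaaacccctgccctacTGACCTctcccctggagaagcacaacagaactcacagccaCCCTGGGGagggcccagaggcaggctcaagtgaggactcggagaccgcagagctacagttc
Pck1, chr2:173152823-173153072, plus strand: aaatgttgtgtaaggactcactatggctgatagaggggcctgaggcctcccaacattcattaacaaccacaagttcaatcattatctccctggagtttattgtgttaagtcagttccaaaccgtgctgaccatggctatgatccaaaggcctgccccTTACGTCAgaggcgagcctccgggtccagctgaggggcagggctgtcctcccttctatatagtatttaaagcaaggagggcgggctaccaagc
The motifs were searched on both strands over the whole windows. The EBF core CCCNNGGG, found in 13.7% of 32851 mouse windows, matched once in the downstream Aqp7 window and at 2 overlapping places in the downstream Gpd2 window. The same core with T before and A after it was in 0.904% of all windows and in none of the windows of the 6 genes. The nuclear receptor site AGGTCA, in 16.3% of all windows, matched on the reverse strand in both Aqp7 windows, 101 and 223 bases before the downstream start site, and the farther match is the same place as the match 49 bases before the upstream start site. The direct repeat of this site with 1 base between its copies was in 0.0396% of all windows and had no match here. The cyclic AMP response element TTACGTCA, in 0.499% of all windows, stood 93 bases before the Pck1 start site, and the form TGACGTCA, in 1.79% of all windows, had no match. The glucocorticoid receptor palindrome, in 0.00913% of all windows, had no match either. The Gyk, Gpd1l and Pck2 windows and the upstream Gpd2 window held none of these letter strings.

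Library totals over all genes ran from 16.9 to 24.7 M reads, and levels are given as CPM, counts per M reads after TMM scaling between libraries. Ebf2 was at 37.0, 14.9, 30.3 and 29.4 CPM in wild type replicates 1 to 4 and at 499, 231, 575 and 447 CPM in the Fabp4-Ebf2 replicates, so Ebf2 was high in every library labelled Fabp4-Ebf2, native and transgene reads together. Markers of adipocytes were abundant in every library, with a summed level of 42270.5 to 59086 CPM over 12 genes in wild type and 33338 to 40098 CPM in Fabp4-Ebf2. Skeletal muscle markers summed to 505 to 1497 CPM over 20 genes in wild type and to 91.1 to 474.8 CPM in Fabp4-Ebf2, where all 19 tested had lower means and 2 fell. That count was 12 without Fabp4-Ebf2 replicate 2, also with wild type replicate 1 left out besides. It was 1 without wild type replicate 2 and 0 with any other single library left out, and DESeq2 called 5 lower. Of all tested genes 0.62% fell, against 1.7% without Fabp4-Ebf2 replicate 2 and 1.09% with wild type replicate 1 left out besides. The share was 1.2% without wild type replicate 2 and 2.57% in DESeq2. Every muscle marker was detected in at least 1 library. Replicate 1 had most muscle transcript among the wild-type libraries, and replicate 2 had most among the Fabp4-Ebf2 libraries. In such whole tissue, more cells of a type and more RNA per cell cannot be told apart.

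Of the 7 genes, Gyk and Gpd2 rose in Fabp4-Ebf2 fat and the other 5 did not pass the test, against 2.8% of 15002 tested genes that rose and 0.62% that fell. A gene was called at an adjusted p under 0.05 by the edgeR quasi-likelihood F test, after Benjamini-Hochberg adjustment over all tested genes. Glycerol kinase, which was scarce in wild-type fat, thus showed the highest fold change of the set, and the mitochondrial glycerol 3-phosphate dehydrogenase the next. The exporter gene Aqp7 and the cytosolic dehydrogenase gene Gpd1 had higher means in Fabp4-Ebf2 that did not pass, and both carboxykinase genes and Gpd1l had log2 fold changes of -0.10 to 0.41. Only for Gyk and Gpd2 did the libraries of the genotypes not overlap, with Fabp4-Ebf2 above, which was so for 7.35% of all tested genes. Beside this, the skeletal muscle markers had a median of -2.08 (log2 fold change) over the 19 tested, and 8 of 12 markers of brown and beige adipocytes rose, with a summed level of 221 to 543 CPM in wild type and 1396 to 4262 CPM in Fabp4-Ebf2. The count of 8 was 4 without wild type replicate 3 or wild type replicate 4 and 5 without Fabp4-Ebf2 replicate 1. Of all tested genes 0.583, 0.649 and 0.926% rose in these fits. The part of the muscle and the brown and beige markers in the results was not tested. Of the adipocyte markers 1 of 12 fell, a count of 0 to 2 with single libraries left out and of 4 in DESeq2. Lower means in Fabp4-Ebf2 were seen for 9 of these 12 and higher means for 3, with a median log2 fold change of -0.34. The means of all 5 erythrocyte markers were lower in the transgenic libraries (median -0.64 on the log2 scale), and 0 passed in edgeR, DESeq2 or limma-voom, while 4 had an unadjusted p under 0.05, as had 2625 of the 15002 genes tested. Lists for macrophages, lymphocytes, endothelium and mammary or simple epithelium had 0 calls in edgeR, with 1, 1, 2 and 1 genes at an unadjusted p under 0.05, and DESeq2 called 1 endothelial and 1 epithelial marker lower. Means were lower in Fabp4-Ebf2 for 4 of 9 macrophage, 9 of 10 lymphocyte and all 8 endothelial markers. Only 3 of the 8 epithelial markers were tested, 1 with a lower mean. In edgeR 1 endothelial marker was called without wild type replicate 1 or without Fabp4-Ebf2 replicate 2. Of 8 markers of progenitors and fibroblasts 1 rose while 6 had lower means, and 0 were called in 6 of the 8 single omissions.

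**Figure D1:**
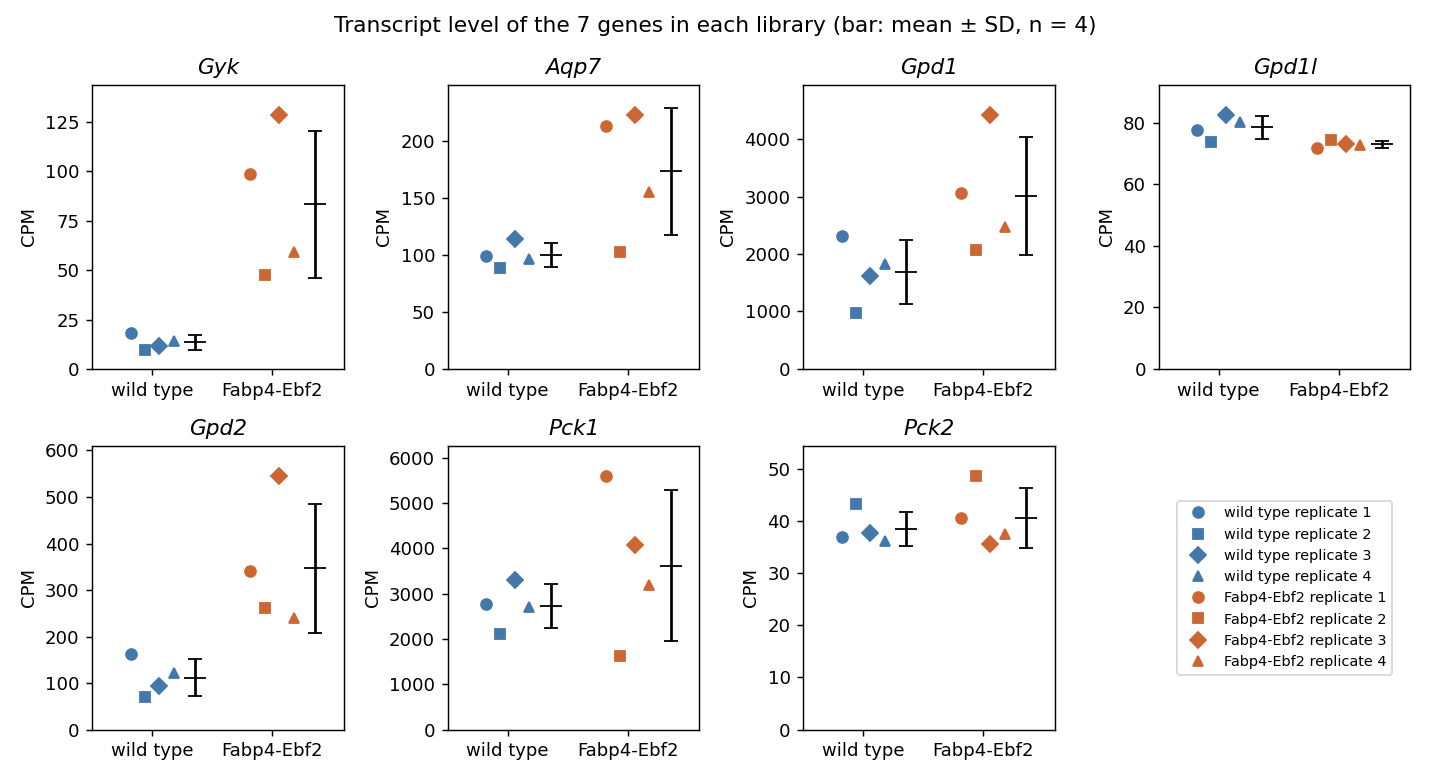
Level in CPM (vertical axes from 0, scales differ) of each of the 7 genes in the 4 wild-type (blue) and 4 Fabp4-Ebf2 (orange) libraries, with the replicate shown by the marker's shape and mean ± SD beside the points. The points of the genotypes are separate for Gyk and Gpd2 and overlap for Aqp7, Gpd1, Gpd1l, Pck1 and Pck2.

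Gyk encodes glycerol kinase, the step that returns free glycerol to glycerol 3-phosphate. Wild type replicates 1 to 4 held 18.3, 9.65, 11.5 and 14.3 CPM, from 348, 249, 258 and 241 reads. The Fabp4-Ebf2 replicates held 98.4, 47.5, 128 and 59.1 CPM, from 2084, 1132, 2221 and 1446 reads. Every Fabp4-Ebf2 library was above every wild-type library, and replicates 2 and 4 were the lower pair of the transgenic group. The mean went from 13.4 ± 3.75 CPM (SD, n = 4) to 83.3 ± 37.1 CPM (SD, n = 4), a 6.21-fold rise with a log2 fold change of 2.64 and a standard error (SE) of 0.33 (adjusted p = 0.00688 by edgeR). By unadjusted p it stood at place 37 among the tested genes. A two-sided exact permutation test on log2 CPM gave p = 0.0286, the lowest value possible with 70 arrangements of 8 libraries. The call held with any single library left out, at adjusted p by edgeR of 0.00190 to 0.0342 and log2 fold changes of 2.35 to 2.82. The authors' deposited table gave a log2 fold change of 2.61 with an FDR of 1.05e-25. The table holds 2 Gyk transcripts, whose counts differ by at most 6 reads in any library, so they stand for the same reads and the isoforms were not separated.

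Other glycerol kinase genes did not pass or were not expressed at a level that could be tested. Gykl1, the kinase-like gene nearest to Gyk by name, had 0 reads in all 8 libraries, and Gk2, which is best known from testis, had too few reads to be tested. Gk5 was at 4.14 ± 0.455 CPM in the transgenic and 3.74 ± 1.14 CPM in the wild-type libraries (n = 4 each) and did not pass (adjusted p = 0.766 by edgeR).

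Gpd2 encodes the mitochondrial glycerol 3-phosphate dehydrogenase, which feeds the respiratory chain. Wild type replicates 1 to 4 were at 163, 69.2, 94.8 and 121 CPM. The Fabp4-Ebf2 replicates were at 342, 262, 545 and 239 CPM. The lowest Fabp4-Ebf2 library, replicate 4, lay above the highest wild-type library, replicate 1. The mean rose 3.10-fold, from 112 ± 40.0 to 347 ± 139 CPM (SD, n = 4 each), a log2 fold change of 1.63 (SE 0.32, adjusted p = 0.0260 by edgeR). The exact permutation p was 0.0286, again the smallest possible. The authors' deposited table gave a log2 fold change of 1.63 with an FDR of 1.00e-10. The call was lost on omitting replicate 3 or 4 of wild type, or replicate 1 or 3 of Fabp4-Ebf2, at adjusted p = 0.0855, 0.0795, 0.0647 and 0.0503 by edgeR, while the log2 fold change stayed between 1.33 and 1.87 over all 8 omissions. The share of all genes that rose was itself smaller without these libraries, at 0.583, 0.649, 0.926 and 1.66%. Its 2 transcript rows differed by at most 12 reads in any library.

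Aqp7 encodes the aquaglyceroporin through which glycerol leaves adipocytes. It was at 99.2, 88.8, 114 and 96.4 CPM in wild type and at 212, 102, 222 and 155 CPM in Fabp4-Ebf2. Fabp4-Ebf2 replicate 2 lay inside the wild-type range and the other 3 lay above it. The mean was 173 ± 55.7 CPM against 99.6 ± 10.6 CPM (SD, n = 4 each), a log2 fold change of 0.80 (SE 0.22) that did not pass (adjusted p = 0.0886 by edgeR, exact permutation p = 0.0571). Without Fabp4-Ebf2 replicate 2, the log2 fold change was 0.97 and Aqp7 passed (adjusted p = 0.00767 by edgeR), with 4.39% of all genes rising in that fit. That library had the least Ebf2 and the most muscle transcript of its group, and whether either bears on the call of Aqp7 was not tested. With Fabp4-Ebf2 replicate 2 and wild type replicate 1 both left out, the adjusted p by edgeR was 0.0211, with 3.42% of all genes rising. Fitted with replicate number as a block, it passed at an adjusted p by edgeR of 0.0478, with 3.17% rising. Aqp7 also passed in DESeq2 (adjusted p = 0.0115, where 5.66% of genes rose) and in the authors' deposited table (FDR 0.000713, where 2.98% of genes were higher). Its call therefore depended on 1 library and on the test used.

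Gpd1, the cytosolic glycerol 3-phosphate dehydrogenase gene, was at 2321, 969, 1624 and 1819 CPM in wild type and at 3069.6, 2065, 4416 and 2466 CPM in Fabp4-Ebf2. Fabp4-Ebf2 replicate 2 lay under wild type replicate 1, and the other libraries of the genotypes were apart. The mean was 3004 ± 1028 CPM against 1683 ± 559.7 CPM (SD, n = 4 each), a log2 fold change of 0.84 (SE 0.31) that did not pass (adjusted p = 0.195 by edgeR, exact permutation p = 0.0571). In the authors' deposited table Gpd1 passed, with an FDR of 0.00333, where 2.98% of all 22869 genes were higher at an FDR under 0.05. DESeq2 gave an adjusted p of 0.0521, which did not pass. With any single library left out Gpd1 did not pass in edgeR, at adjusted p of 0.109 to 0.465.

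Gpd1l, an NAD-linked relative of GPD1 also known for a role in cardiac sodium channel function, had the smallest spread of the set. It was at 77.6, 73.9, 82.4 and 80.2 CPM in wild type and at 71.8, 74.5, 73.1 and 72.9 CPM in Fabp4-Ebf2. The transgenic libraries lay low in the wild-type range or just under it. The log2 fold change was -0.10 (SE 0.065, adjusted p = 0.436 by edgeR, exact permutation p = 0.0571).

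Pck1, the cytosolic carboxykinase that controls glyceroneogenesis in fat, was at 2776, 2116, 3302 and 2709 CPM in wild type. In Fabp4-Ebf2 it was at 5597, 1616, 4067 and 3196 CPM. The transgenic group thus held both the highest library of all 8, replicate 1, and the lowest, replicate 2, with a 3.46-fold span against 1.56-fold in wild type. The mean was 3619 ± 1664 CPM against 2726 ± 485 CPM (SD, n = 4 each), a log2 fold change of 0.41 (SE 0.33) that did not pass (adjusted p = 0.554 by edgeR, exact permutation p = 0.514). Leaving out Fabp4-Ebf2 replicate 1 gave 0.12 and leaving out replicate 2 of that group gave 0.64, and neither passed (adjusted p = 0.895 and 0.152 by edgeR).

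Pck2, the mitochondrial carboxykinase, was at 36.9, 43.2, 37.6 and 36.1 CPM in wild type and at 40.6, 48.5, 35.6 and 37.4 CPM in Fabp4-Ebf2. The groups overlapped almost wholly, and replicate 2 was the highest library in each. The log2 fold change was 0.077 (SE 0.11, adjusted p = 0.746 by edgeR, exact permutation p = 0.629).

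Scaled by transcript length, the 7 genes spanned a wide range of levels, and the order changed between the genotypes. RPKM, reads per kilobase per M reads, used transcript lengths of GENCODE M21, which is annotated on another build than the authors' mm9. In wild type the mean was highest for Pck1, at 1024 ± 182 RPKM, then Gpd1 at 588 ± 196 RPKM, with overlapping ranges between them. Aqp7 followed at 39.4 ± 4.20 RPKM, Gpd2 at 19.9 ± 7.12 RPKM and Gpd1l at 17.9 ± 0.833 RPKM, the last pair again overlapping. Pck2, whose length was the median of 2 matched transcripts, was at 11.3 ± 0.952 RPKM. In wild type replicate 2 it lay above Gpd2, at 12.7 against 12.3 RPKM. Gyk was lowest at 3.17 ± 0.883 RPKM, below Pck2 in every wild-type library. In Fabp4-Ebf2, Pck1 at 1359.99 ± 625 RPKM (mean ± SD, n = 4 as throughout) and Gpd1 at 1049.99 ± 359 RPKM overlapped, as did Aqp7 at 68.5 ± 22.04 RPKM and Gpd2 at 61.7 ± 24.7 RPKM. By its mean, Gyk moved from the last place to the fifth, at 19.6 ± 8.73 RPKM, and its range overlapped that of Gpd1l, at 16.6 ± 0.250 RPKM, and that of Pck2, which had the lowest mean at 11.9 ± 1.69 RPKM. In Fabp4-Ebf2 replicate 2 Gyk was still the lowest gene, at 11.2 RPKM against 14.3 RPKM for Pck2, and in replicate 4 it lay between Pck2 and Gpd1l, at 13.9 RPKM.

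**Figure D2:**
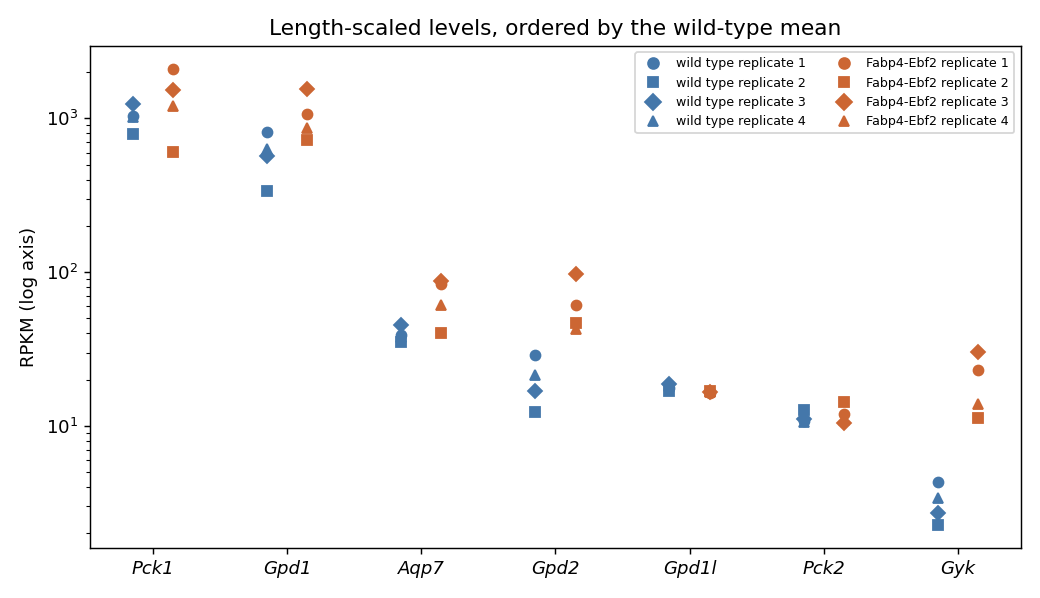
RPKM on a log axis for each of the 7 genes, ordered by the wild-type mean, with 1 point per library (blue wild type, orange Fabp4-Ebf2, shape by replicate). Gyk is lowest in wild type, with libraries between 2.27 and 4.30 RPKM, and lies between 11.2 and 30.2 RPKM in Fabp4-Ebf2.

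Ratios of reads between genes of the same library do not depend on how libraries are scaled, and they are given as descriptions without a test. For every 100 Gpd1 reads there were 0.787, 0.996, 0.710 and 0.788 Gyk reads in wild type and 3.21, 2.30, 2.91 and 2.40 in Fabp4-Ebf2. The groups were apart, with a difference of 1.72 in mean log2 ratio (SD 0.21 in wild type and 0.23 in Fabp4-Ebf2). Gyk thus stood higher against the cytosolic dehydrogenase in every transgenic library.

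Measured against the glycerol exporter, there were 18.4, 10.9, 10.1 and 14.9 Gyk reads for every 100 Aqp7 reads in wild type and 46.3, 46.5, 57.7 and 38.1 in Fabp4-Ebf2. The difference in mean log2 ratio was 1.82, again without overlap. Against Pck1, the difference was 2.27 and the groups were apart, with 0.349 to 0.658 Gyk reads for every 100 Pck1 reads in wild type and 1.76 to 3.16 in Fabp4-Ebf2. Fabp4-Ebf2 replicate 2, which was low in Gyk, Aqp7 and Pck1 alike, was not set apart from its group in the ratio of Gyk to Aqp7.

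Between the shuttle enzymes, there were 7.02, 7.15, 5.84 and 6.66 Gpd2 reads for every 100 Gpd1 reads in wild type and 11.1, 12.7, 12.3 and 9.70 in Fabp4-Ebf2. This ratio had a smaller spread than either gene alone, with an SD of 0.13 log2 in wild type and 0.18 in Fabp4-Ebf2, and a difference of 0.78 without overlap. The ratio of Gpd1l to Gpd1 overlapped between the genotypes, with a difference of -0.95. That of Pck2 to Pck1 also overlapped, with a difference of -0.22 that was 0.031 without Fabp4-Ebf2 replicate 1 and -0.65 without its replicate 2.

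**Figure D3:**
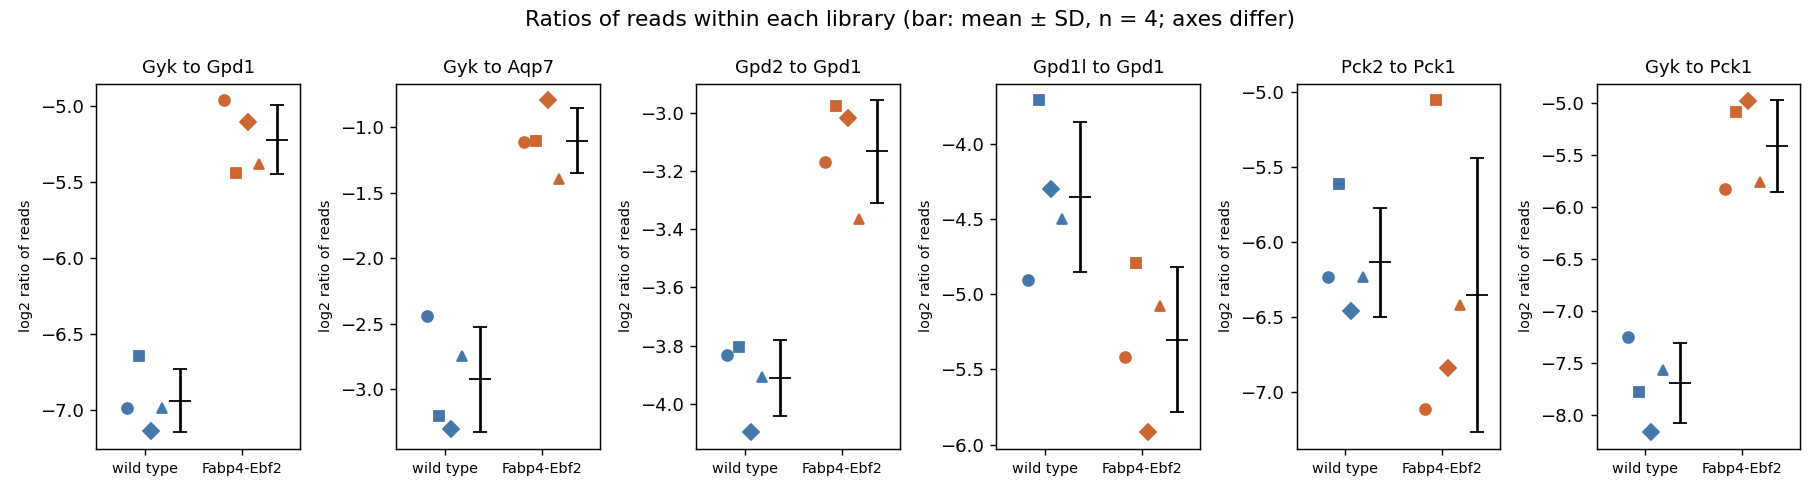
Log2 ratio of reads between 2 genes of the same library (vertical axes, scales differ), for 6 pairs, with 1 point per library (blue wild type, orange Fabp4-Ebf2, shape by replicate) and mean ± SD. The genotypes are apart for Gyk to Gpd1, Gyk to Aqp7, Gpd2 to Gpd1 and Gyk to Pck1, and overlap for Gpd1l to Gpd1 and Pck2 to Pck1.

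Libraries of 1 genotype differed from each other in a like order for most of these genes. Among Fabp4-Ebf2 libraries, replicate 3 was highest and replicate 2 lowest for Gyk, Aqp7 and Gpd1, and Ucp1, the uncoupling protein gene of brown and beige fat, had the order 3, 1, 4, 2 in common with these 3 genes. Gpd2 had replicate 3 highest and replicate 4 lowest, and Pck1 had replicate 1 highest and replicate 2 lowest. Ebf2 was also lowest in replicate 2. In wild type, Gyk, Gpd1, Gpd2 and Ucp1 all had the order 1, 4, 3, 2, and Aqp7 and Pck1 had the order 3, 1, 4, 2. Wild type replicate 1 stood out for Ucp1, at 98.5 CPM against 9.26 to 20.3 CPM in the other 3, while its Gyk was 18.3 CPM against 9.65 to 14.3 CPM. Pck2 ran the other way, with replicate 2 highest in both genotypes. These orders describe 4 libraries each and were not tested.

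**Figure D4:**
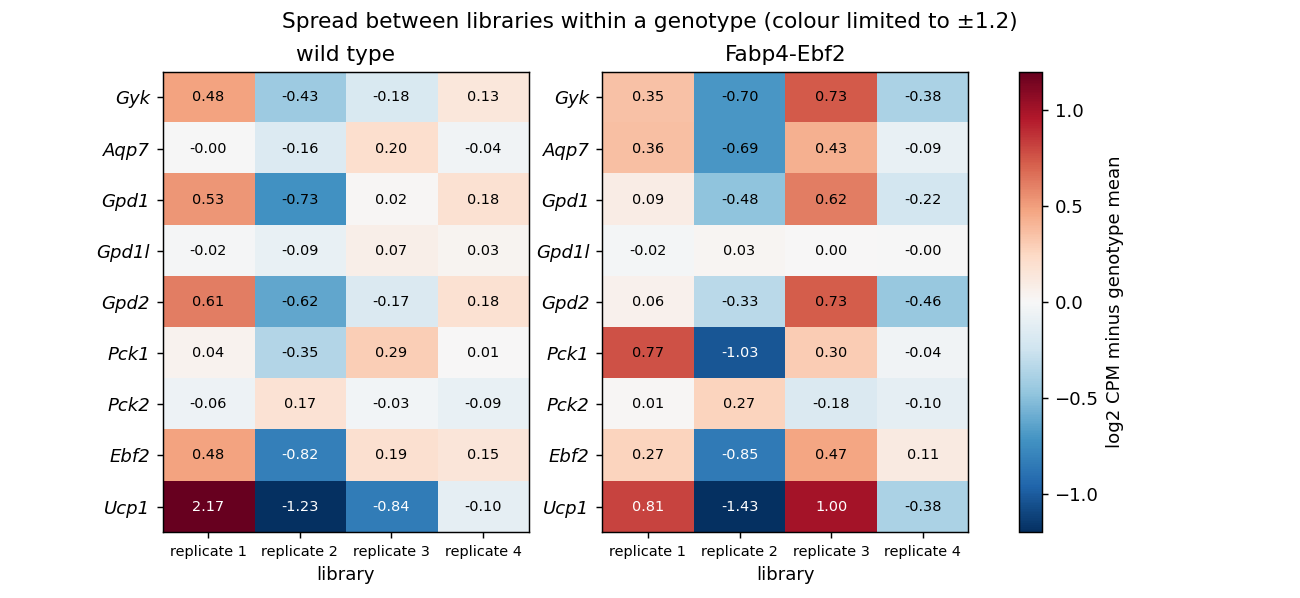
Log2 CPM of each library minus the mean of its genotype, for the 7 genes, Ebf2 and Ucp1 (rows) in wild-type (left) and Fabp4-Ebf2 (right) libraries (columns), red above and blue below the mean. In Fabp4-Ebf2 replicate 2 the values of Gyk, Aqp7, Gpd1, Gpd2, Pck1, Ebf2 and Ucp1 are all below 0, from -0.33 to -1.43, and those of Pck2 and Gpd1l are above it, at 0.27 and 0.028.

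The genes most like Gyk and Gpd2 across libraries were taken from those with the highest Pearson r of log2 CPM over all 8 libraries. For Gyk these were Sucla2, a succinyl-CoA ligase subunit of the tricarboxylic acid cycle (r = 0.994), and Agpat3, an acyltransferase of glycerolipid synthesis (r = 0.993). For Gpd2 they were Pank1, a pantothenate kinase of coenzyme A synthesis (r = 0.996), Gja1, the gap junction protein connexin 43 (r = 0.995), and Gfm1, a mitochondrial translation elongation factor (r = 0.995). With the genotype means taken away, r was 0.950 and 0.951 for the first set and 0.995, 0.981 and 0.978 for the second. The libraries form 2 genotype groups, so the first values carry the genotype difference as well as the spread within each genotype. The choice from 15002 genes favours high values. All 5 rose, with log2 fold changes of 1.90 and 0.66 for Sucla2 and Agpat3 and of 2.41, 0.94 and 0.80 for Pank1, Gja1 and Gfm1 (adjusted p by edgeR of 0.00598 to 0.0250). Sucla2 passed with any single library left out. The omission of wild type replicate 3 or 4 ended the call of Agpat3, Gja1, Gfm1 and Pank1, and that of Fabp4-Ebf2 replicate 1 ended it for the first 3, at adjusted p by edgeR of up to 0.0792.

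The steps on either side of glycerol were described with 8 lists of related genes, 113 tested in all. Of these 22 were called, Ebf2 itself among them, against 3.42% of all tested genes called in either direction. Because the lists were chosen with earlier results of these data known, this comparison is a description and not independent evidence. The median log2 fold change over all tested genes was -0.0096. The list for lipolysis, which holds lipases together with their cofactors and regulators, gave no call. Of 12 tested lipolysis genes 0 passed in edgeR, 0 had an unadjusted p under 0.05, and DESeq2 and limma-voom called 0, with a median log2 fold change of 0.11. The triglyceride lipase gene Pnpla2 and the hormone-sensitive lipase gene Lipe, named after their values were seen, had log2 fold changes of -0.063 (SE 0.18) and 0.12 (SE 0.21). The smallest p was that of Abhd6, a monoacylglycerol lipase gene, with a log2 fold change of 0.30 (SE 0.15, adjusted p = 0.323 by edgeR).

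Other channels and enzymes of glycerol did not pass either. Of the 10 other aquaporin genes 5 were tested and 0 passed in edgeR, with 1 at an unadjusted p under 0.05, Aqp9. Aqp9, an aquaglyceroporin best known from liver, was at 0.827 ± 0.250 CPM in the transgenic and 1.63 ± 0.305 CPM in the wild-type libraries (log2 fold change -0.95, SE 0.27, adjusted p = 0.102 by edgeR), without overlap, and DESeq2 called it lower, its only call in this list, where limma-voom made 0 calls. The other aquaglyceroporin, Aqp3, was at 2.89 ± 0.864 CPM in the transgenic and 3.41 ± 0.576 CPM in the wild-type libraries. Of 12 tested genes in the list of glycerol kinase relatives and glycerol phosphate enzymes or carriers, 0 passed in edgeR, DESeq2 or limma-voom and 0 had an unadjusted p under 0.05. Slc37a3, of the sugar phosphate exchanger family, had the smallest p there (log2 fold change -0.14, adjusted p = 0.468 by edgeR), and Pgp, which removes phosphate from glycerol 3-phosphate, was at 30.1 ± 1.51 CPM in the transgenic and 29.1 ± 1.53 CPM in the wild-type libraries.

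Among genes that esterify glycerol 3-phosphate to triglyceride, 1 of 16 tested rose, 1 fell and 14 did not pass, with a median log2 fold change of 0.10. Agpat9, a glycerol 3-phosphate acyltransferase, fell from 138 ± 24.8 to 84.3 ± 14.04 CPM (log2 fold change -0.71, SE 0.16, adjusted p = 0.0408 by edgeR). The wild-type libraries were at 130.3, 115, 173 and 135 CPM and the Fabp4-Ebf2 libraries at 95.6, 64.5, 84.4 and 92.7 CPM, without overlap. Agpat3, which acts on the next intermediate, rose from 214 ± 15.03 to 338 ± 45.6 CPM (log2 fold change 0.66, SE 0.11, adjusted p = 0.0186 by edgeR). The other acyltransferases that use glycerol 3-phosphate in fat, Gpam and Agpat6, had log2 fold changes of 0.13 (SE 0.33) and 0.28 (SE 0.19) and did not pass. Omitting replicate 3 or 4 of wild type, or replicate 1 of Fabp4-Ebf2, left 0 calls in this list. Over all tested genes 0.768, 0.794 and 1.09% were called in these fits, in either direction. Agpat9 also lost its call on omitting wild type replicate 1, Fabp4-Ebf2 replicate 3 or Fabp4-Ebf2 replicate 4, at adjusted p by edgeR of up to 0.112.

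In the list for pyruvate, oxaloacetate and malate supply, which feeds glyceroneogenesis, 3 of 17 tested genes rose and the other 14 did not pass, with a median log2 fold change of 0.25. DESeq2 called 5 higher and 1 lower. Ldhb, the lactate dehydrogenase subunit of oxidative tissues, rose 3.33-fold, from 35.1 ± 2.65 to 117 ± 34.6 CPM (adjusted p = 0.00282 by edgeR), and passed with any single library left out. Me3, a mitochondrial malic enzyme, rose from 1.72 ± 0.516 to 8.69 ± 4.66 CPM (log2 fold change 2.34, SE 0.38, adjusted p = 0.0155 by edgeR). Mdh2, mitochondrial malate dehydrogenase, rose 1.70-fold from 306 ± 28.7 to 522 ± 114 CPM (adjusted p = 0.0313 by edgeR). Pcx, pyruvate carboxylase, which makes the oxaloacetate that PCK1 uses, was at 1414 ± 157 CPM in the transgenic and 1387 ± 436 CPM in the wild-type libraries (log2 fold change 0.028, SE 0.22, adjusted p = 0.957 by edgeR) and is named after its value was seen. Without wild type replicate 3 the count was 1, Me3 having an adjusted p by edgeR of 0.0557, and 0.583% of all tested genes rose. Mdh2 did not pass in 6 of the 8 omissions (adjusted p by edgeR of up to 0.0949), all but those of Fabp4-Ebf2 replicates 2 and 3.

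For the triose phosphate segment and gluconeogenesis, 4 of 14 tested genes rose and the other 10 did not pass, with a median log2 fold change of 0.35. DESeq2 called 7 higher, and the median was 0.15 when every gene with any read was kept. Fbp2, the muscle form of fructose bisphosphatase, was at 1.37, 0.659, 0.715 and 0.714 CPM in wild type and at 5.19, 2.35, 10.2 and 6.26 CPM in Fabp4-Ebf2. Every transgenic library was above every wild-type library, and the log2 fold change was 2.79 (SE 0.45, adjusted p = 0.0155 by edgeR). The skeletal muscle markers were lower in the same libraries, and whether muscle content bears on the level of Fbp2 was not tested. Pfkl, a phosphofructokinase, and Eno1, an enolase, rose with log2 fold changes of 0.86 each (SE 0.17 and 0.14, adjusted p = 0.0284 and 0.0170 by edgeR), and the fourth, Gpi1, named outside the rule for named genes, by 0.55 (SE 0.11, adjusted p = 0.0290 by edgeR). Gapdh, an abundant transcript in most tissues, was at only 4.41 ± 0.787 CPM in the transgenic and 4.23 ± 0.632 CPM in the wild-type libraries. Gapdh and Eno1 have near-identical copies elsewhere in the genome, so their counts are uncertain. The count of risen genes was 0 without wild type replicate 3, and 1 without wild type replicate 4 or without Fabp4-Ebf2 replicate 1. In these fits 0.583, 0.649 and 0.926% of all tested genes rose. The adjusted p by edgeR then reached 0.0623 for Fbp2, 0.0527 for Eno1, 0.0869 for Pfkl and 0.0792 for Gpi1. Pfkl also lost its call on omitting wild type replicate 1 or 2, and Gpi1 on omitting Fabp4-Ebf2 replicate 3 or 4.

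Genes of the respiratory chain around ubiquinone, listed as partners of GPD2 but not specific to the glycerophosphate shuttle, rose most widely among the 8 lists. Of these 9 of 11 tested were past the threshold, with a median log2 fold change of 0.92. Etfdh, which like GPD2 delivers electrons to ubiquinone, rose 3.41-fold, from 130 ± 26.5 to 441 ± 149 CPM (adjusted p = 0.00900 by edgeR). Sdhb of complex II rose 2.03-fold and Uqcrfs1 of complex III rose 1.92-fold (adjusted p = 0.0120 and 0.0135 by edgeR). The pair that did not pass was Dhodh and Sqrdl, further enzymes that reduce ubiquinone, at log2 fold changes of -0.0080 (SE 0.099) and -0.15 (SE 0.13), and both are named because they were the exceptions. Fewer rose without some libraries, with 5 without wild type replicate 1, 2 without wild type replicate 3 or 4 and 3 without Fabp4-Ebf2 replicate 1. The share of all tested genes that rose was itself smaller in these fits, at 1.64, 0.583, 0.649 and 0.926% against 2.8%. Etfdh and Sdhb passed in all 8 omissions, and Uqcrfs1 did not without wild type replicate 3 or 4 (adjusted p by edgeR of up to 0.0559).

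Of 26 tested regulators described for Pck1, Gyk or Aqp7, 4 rose and 22 did not pass, and the median log2 fold change was 0.070. Ebf2 itself was 1 of the 4. Ppara, a nuclear receptor of fatty acid oxidation that also acts on glycerol genes in liver, was at 47.6, 18.8, 37.5 and 40.3 CPM in wild type and at 223, 114, 323 and 161 CPM in Fabp4-Ebf2. The genotypes were apart, and the log2 fold change was 2.51 (SE 0.36, adjusted p = 0.00981 by edgeR, and up to 0.0442 with any single library left out). Ppargc1b, a coactivator of nuclear receptors, rose 2.59-fold (adjusted p = 0.0250 by edgeR), and the fourth, Cebpb, named outside the rule, had a log2 fold change of 0.83 (adjusted p = 0.0338 by edgeR). Pparg, the receptor known to act on Aqp7, Pck1 and Gyk in adipocytes, was at 260.5 ± 23.3 CPM in the transgenic and 212 ± 57.7 CPM in the wild-type libraries and did not pass (log2 fold change 0.29, SE 0.19, adjusted p = 0.443 by edgeR). The count was 2 on omitting replicate 3 or 4 of wild type, or replicate 1 or 3 of Fabp4-Ebf2. Ppargc1b and Cebpb did not pass there (adjusted p by edgeR of up to 0.0678 and 0.108), and 0.583, 0.649, 0.926 and 1.66% of all tested genes rose. Neither gene passed without wild type replicate 1, where the count was 3 and so held a regulator outside these 4. DESeq2, the replicate block and the omission of both wild type replicate 1 and Fabp4-Ebf2 replicate 2 called 5 each. Over all tested genes 8.23, 3.99 and 4.52% were called there.

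**Figure D5:**
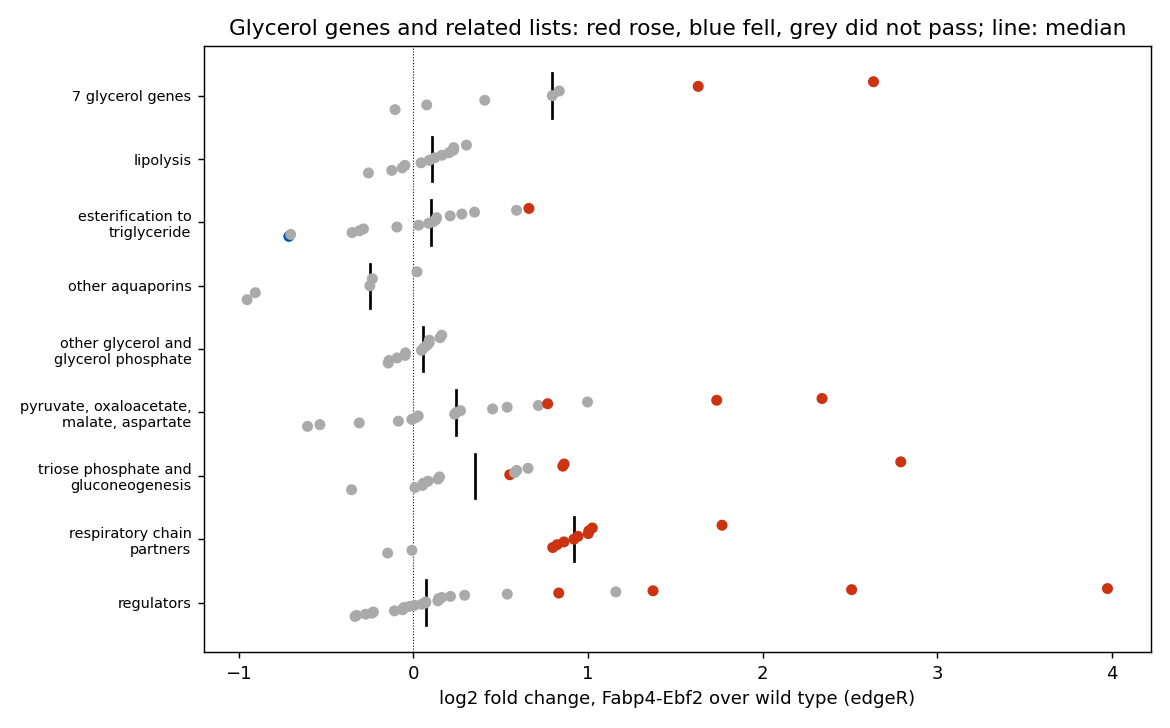
Log2 fold change of Fabp4-Ebf2 over wild type (horizontal axis) for the 7 glycerol genes and the 8 related lists (rows), with 1 point per tested gene, red for genes that rose, blue for genes that fell, grey for those that did not pass, and a line at each list's median. The lipolysis, aquaporin and other glycerol rows hold only grey points, and the respiratory chain partners have 9 red points of 11.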

How the data were processed

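The deposited table held whole-number read counts for 28644 RefSeq transcripts in 8 libraries, made by the authors on mm9 and compared with edgeR, both names being from the submitters' processing notes. Aligner, counter and strand use: not given in the sources used here. The authors' log2 fold change and FDR, an adjusted p-value, were copied per the file headers. A further 8 per-sample columns were not used.

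Each gene was the transcript marked best (21967 genes) or, with none marked, the one with most reads (902). Genes were compared in edgeR 4.0.16 under R 4.3.3, using TMM (factors of 0.941 to 1.07), filterByExpr (15002 genes), glmQLFit, glmQLFTest and Benjamini-Hochberg adjustment at 0.05. The biological coefficient of variation was 18.7%. A count of 3 reads equals 0.122 to 0.178 CPM. The SE is the absolute log2 fold change over the square root of F. Pearson r used log2 CPM with a prior count of 2. The procedure was tested on simulated data.

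Members, lists and motifs were chosen with earlier results of these data known. Named were the 7 genes, Ebf2, Ucp1, up to 3 called members of each list with the smallest p (otherwise the smallest p), and the 3 genes most like each called member, of which 1 is not reported here. Alternatives were DESeq2 1.42.0, limma-voom 3.58.1, other factors, filters and transcript choices, robust dispersion, a block on replicate number and left-out libraries. Leaving out wild type replicate 1 with Fabp4-Ebf2 replicate 2 was added after seeing the data. Figures used matplotlib 3.10.9. Protein sequences were not used here.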

Additional observations from a re-analysis of the deposited data

How the results depend on the processing

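Of the 7 genes, Gyk and Gpd2 were called in each of 11 settings other than single omissions, and Aqp7 was called besides in DESeq2 (log2 fold change 0.79), with the replicate block (0.74) and without both doubted libraries (0.97). With single libraries left out, log2 fold changes ran from 2.35 to 2.82 for Gyk, 1.33 to 1.87 for Gpd2 and 0.65 to 0.97 for Aqp7, and 1 to 3 of the 7 genes were called, against 3 without both doubted libraries (wild type replicate 1 and Fabp4-Ebf2 replicate 2). That of Pck2, never called, ran from -0.030 to 0.13, negative only without Fabp4-Ebf2 replicate 2 and, at -0.048, without both doubted libraries. Over all genes 420 rose and 93 fell, against 848 and 385 in DESeq2, 88 to 662 and 22 to 256 with single libraries left out, and 513 and 164 without both doubted libraries. Of the 113 related genes 22 were called, and 5 to 23 with single libraries left out. The counts of single lists moved by over 1.5 times, or to or from 0, in 22 of 152 comparisons, 18 of them single omissions. The lipolysis, aquaporin and other glycerol lists had 0 calls and so little room to move, and only the aquaporins did, in DESeq2. The cause of these moves was not tested. Whether same-numbered libraries of the genotypes share more than a number is not given in the sources used here. Deviations of same-numbered libraries correlated at -0.133, 0.331, 0.142 and 0.0574. The value for replicate 2 was the highest between any libraries of unlike genotype, while wild type replicate 1 correlated best with Fabp4-Ebf2 replicate 2. So few values cannot decide whether the libraries were paired. The replicate block gave 475 genes that rose and 123 that fell. The lowest count of the 7 genes in a library was 241 reads, for Gyk, and spread between libraries was not compared with counting error.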
